A study of Homo sapiens with 12 samples.

Results

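The genes described here encode the enzymes that make and remove sphingosine 1-phosphate (S1P) and the receptors that sense it. They are the sphingosine kinase genes SPHK1 and SPHK2, the S1P lyase gene SGPL1, the S1P phosphatase genes SGPP1 and SGPP2, and the receptor genes S1PR1, S1PR2 and S1PR3. These 8 of the 22324 genes in the table were taken by their symbols, and they were chosen after an earlier look at the same libraries. Which values led to the choice is not recorded. The differences between the p53 knockout (p53 KO) clones and WT cells were treated as used. Their differences from WT are therefore given as a description, without p-values. The difference between the clones sets neither against WT and was tested, in a fit whose estimate of the spread also draws on the WT libraries. The same p53 KO libraries enter this test, so it is not independent of how the members were chosen.

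S1P is a signalling lipid. Ceramidases release sphingosine from ceramide, and sphingosine kinases phosphorylate it to S1P. S1P phosphatases return S1P to sphingosine, the lyase cleaves it irreversibly, and transporters carry it out of the cell, where it acts on G protein-coupled receptors that influence cell migration, survival and barrier function.

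RNA was sequenced from MCF10A cells, an immortalised, non-tumorigenic human mammary epithelial line, in 12 libraries. WT denotes the parental cells (n = 4), and KO313 (n = 4) and KO414 (n = 4) denote clones edited with CRISPR-Cas9, each through its own pair of guide RNAs, together called p53 KO (n = 8). All cells were grown in the same medium with horse serum, insulin, EGF, hydrocortisone and cholera toxin, and had been passaged fewer than 20 times. Each clone grew from a single edited cell whereas WT is an unedited population, so loss of p53 and the editing and cloning cannot be told apart. The libraries of a group are biological repeats per the study, and their labels name neither a batch nor a date. Separate cultures are not stated, so p-values measure only the spread between these libraries.

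Levels are given in RPKM, reads scaled to the gene's length in kilobases and to the size of the library, and are means ± SD unless single libraries are named. CDKN1A, the p53 target that encodes the cell cycle inhibitor p21, had 228 to 272 RPKM in WT and 25.4 to 35.6 in p53 KO. MDM2, the p53 target that encodes the ubiquitin ligase of p53, had 31.5 to 46.3 and 8.59 to 11.5 RPKM. Between 15600 and 16641 genes were above 0 in each library. KO414 replicate 1 stood apart from its group, with a median absolute log2 deviation of 0.201 from the other KO414 libraries, against 0.0644 to 0.135 for the other 11 libraries, and results that depend on it are named below. The cells expressed all 5 basal mammary markers (KRT5, KRT14, KRT17, TP63 and CDH3), whose summed level was 1582 to 1831 RPKM in WT cells, 1105 to 1259 in KO313 and 999.8 to 1091 in KO414. KRT5 and KRT17 made up most of this sum, and TP63 went the other way, from 6.30 ± 0.415 RPKM in WT to 8.95 ± 1.12 in p53 KO (limma adjusted p = 0.00168). None of the 5 endothelial, 5 leukocyte and 5 fibroblast markers had a group mean of 0.5 RPKM. The leukocyte markers summed to 0.211 to 0.359 RPKM in WT, mostly from ITGAM, and to at most 0.0749 in p53 KO, while CD3E was listed at 0 in all libraries but 1. The endothelial markers summed to at most 0.0869 RPKM, with CDH5 at 0 in all libraries but 1. The fibroblast markers, mostly through COL1A1, summed to 0.380 to 0.507 RPKM in WT, 0.415 to 0.548 in KO313 and 0.250 to 0.411 in KO414.

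In WT cells the transcripts of S1P turnover were SGPL1 (9.13 ± 0.627 RPKM, n = 4), SGPP1 (8.37 ± 1.07) and SPHK1 (7.77 ± 0.484), with S1PR3 (7.35 ± 0.464) the main receptor. The ranges of neighbours in this order overlapped. SGPP2 (1.99 ± 0.0658), SPHK2 (1.36 ± 0.266), S1PR2 (0.523 ± 0.0448) and S1PR1 (0.312 ± 0.0580) followed, each apart from the next. In both clones SPHK1 came first, at 16.1 ± 1.67 RPKM in KO313 and 17.3 ± 3.94 in KO414, and its range lay above that of SGPL1. RPKM values are scaled to gene length, but the study describes its coverage as biased towards the tail end of transcripts, so levels of different genes compare only roughly. The same limit holds for the ratio and the shares given below.

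**Figure D1:**
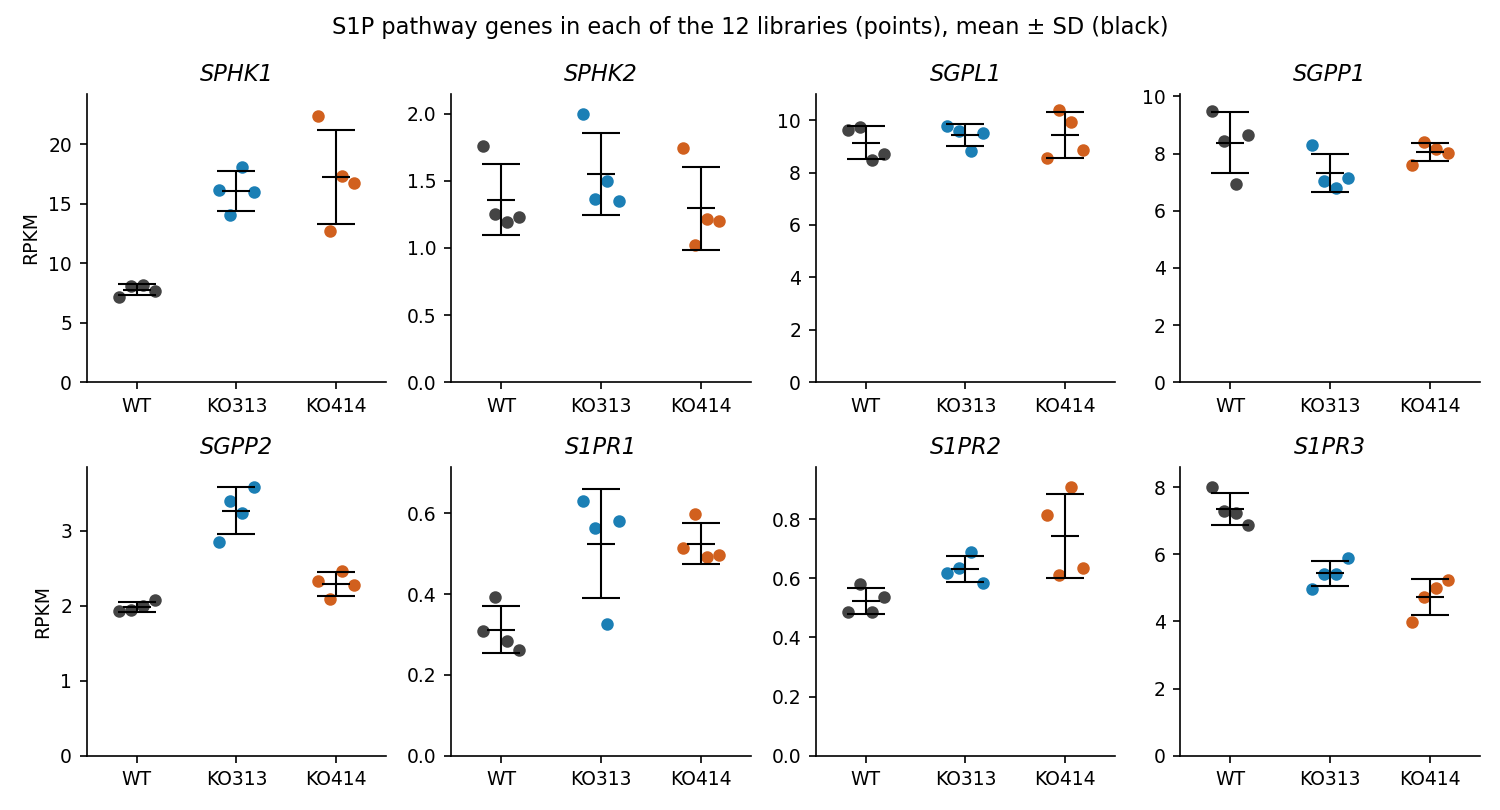
Level of each gene in RPKM (vertical axes start at 0 and differ between panels) in the 12 libraries (points, replicates 1 to 4 from left to right), with the group mean and SD in black (n = 4 per group). SPHK1 is at 7.12 to 8.16 in WT and at 12.7 to 22.3 in the clones, S1PR3 lies lower in both clones, SGPP2 is highest in KO313, and SGPL1 overlaps between all groups.

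SPHK1, the kinase isoform found mainly in the cytoplasm, had the largest difference of the 8 genes. Its levels were 7.12, 8.12, 8.16 and 7.68 RPKM in WT replicates 1 to 4. They were 16.2, 14.0, 18.1 and 15.9 RPKM in KO313 and 22.3, 12.7, 17.3 and 16.7 RPKM in KO414. All 8 p53 KO libraries lay above all 4 WT libraries, and KO414 had the widest spread, with its highest value in replicate 1 and its lowest in replicate 2. In bulk RNA, more transcripts per cell and more cells that express the gene cannot be told apart. The mean was 2.15-fold higher in p53 KO than in WT (2.07-fold in KO313 and 2.22-fold in KO414). On the log2(RPKM + 0.5) scale used for all fits, the difference was 1.04 ± 0.11 (SE), 1.00 ± 0.13 and 1.08 ± 0.13 in that order. Without KO414 replicate 1 the KO414 mean was 15.6 ± 2.48 RPKM (n = 3), and the log2 difference of p53 KO from WT was 0.98, below the 2-fold line. The clones did not differ detectably in SPHK1, with a log2 difference of 0.08 for KO414 against KO313 (95% interval -0.21 to 0.37, limma adjusted p = 0.958).

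SPHK1 lies on chromosome 17 and overlaps PRPSAP1 on the opposite strand in GENCODE 29. Whether reads were counted by strand is not given in the sources used here, so reads of overlapping genes cannot be told apart. PRPSAP1 was at 8.96 ± 0.193 RPKM in WT and 9.63 ± 0.578 in p53 KO, a log2 difference of 0.10 ± 0.05 (SE; limma adjusted p = 0.154). In KO414 against WT its log2 difference was 0.16 (limma adjusted p = 0.0247).

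The start regions of SPHK1 are shown because SPHK1 was the gene with the largest difference. RefSeq (GRCh38.p14) gives 3 annotated start windows of 300 bases for SPHK1, each from 250 bases before to 50 after the start, and 2 of them hold the AP-1 motif TGANTCA, which is the same on both strands. AP-1 is a family of dimeric transcription factors built from Fos and Jun proteins. The motifs were chosen after the sequences had been seen. Capitals mark AP-1 matches, and positions are counted from the start as 0. The first window, with the match at position -6, is chr17:76382954-76383253 on the plus strand, and the other, with the match at position -71, is chr17:76385028-76385327 on the plus strand.
SPHK1 window 1: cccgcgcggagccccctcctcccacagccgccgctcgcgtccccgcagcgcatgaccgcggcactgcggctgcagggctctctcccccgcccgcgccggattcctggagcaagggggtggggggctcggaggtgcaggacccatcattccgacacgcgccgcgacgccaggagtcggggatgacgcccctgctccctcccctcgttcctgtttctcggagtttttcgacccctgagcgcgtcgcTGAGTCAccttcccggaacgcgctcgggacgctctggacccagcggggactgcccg
SPHK1 window 3: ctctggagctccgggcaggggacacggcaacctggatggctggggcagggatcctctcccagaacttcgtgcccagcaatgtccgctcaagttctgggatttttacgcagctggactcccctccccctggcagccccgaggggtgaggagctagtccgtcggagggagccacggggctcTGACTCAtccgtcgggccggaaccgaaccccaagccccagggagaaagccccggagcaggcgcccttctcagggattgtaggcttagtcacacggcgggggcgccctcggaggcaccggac
Of all 35116 RefSeq start windows of this length, 7.71% hold the AP-1 motif. The second SPHK1 window holds none. The other motifs searched on both strands were the NF-kB site, held by 5.91% of windows, the p53 half-site (6.63%), the GC box GGGCGG (45.0%) and the TEAD motif GGAATG (14.0%). SPHK1 window 1 holds 1 GC box and 1 TEAD motif, and window 3 holds 1 p53 half-site. A match is only a run of letters, and factor binding was not measured.

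SPHK2, the isoform found largely in the nucleus and at internal membranes, was low in all groups and overlapped between them. Its levels ran from 1.19 to 1.76 RPKM in WT, from 1.35 to 2.00 in KO313 and from 1.02 to 1.74 in KO414. Replicate 1 was the highest library in each of the 3 groups. The log2 difference from WT was 0.14 ± 0.14 (SE) in KO313 and -0.06 ± 0.14 in KO414, and KO414 against KO313 gave -0.20 (95% interval -0.49 to 0.10, limma adjusted p = 0.742). SPHK2, on chromosome 19, overlaps the ribosomal protein gene RPL18 on the opposite strand, which had 250.4 RPKM in WT and 257.9 in p53 KO. The spread of RPL18 within KO414, 201 to 349 RPKM, was wide, and its part in the SPHK2 values was not tested. With SPHK1 higher and SPHK2 little different, SPHK1 made up 85.1 ± 3.26% of the summed kinase RPKM in WT cells, 91.2 ± 1.54% in KO313 and 93.0 ± 0.417% in KO414. The lowest library of the clones was at 89.0% and the highest of WT at 87.2%.

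SGPL1, the lyase gene on chromosome 10, had nearly the same level in the 3 groups. It ranged from 8.48 to 9.73 RPKM in WT, from 8.81 to 9.77 in KO313 and from 8.56 to 10.4 in KO414. The log2 difference from WT was 0.04 ± 0.07 (SE) in each clone, and the clones differed by -0.0021 (95% interval -0.15 to 0.15, limma adjusted p = 1). The ratio of SPHK1 to SGPL1, a level of the gene for synthesis over that for irreversible breakdown, was 0.855 ± 0.0921 in WT, 1.71 ± 0.247 in KO313 and 1.87 ± 0.572 in KO414. KO414 replicate 1 was at 2.61 and replicates 2 to 4 at 1.22, 1.74 and 1.89. The higher mean of KO414 than of KO313 thus rests on replicate 1. In each clone library this ratio was at least 1.22, and in each WT library at most 0.962. These are transcript levels, and neither enzyme activity nor S1P was measured in these files.

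SGPP1, a phosphatase of the endoplasmic reticulum whose gene lies on chromosome 14, also overlapped between groups. It had 6.93 to 9.48 RPKM in WT cells, 6.79 to 8.31 in KO313 and 7.61 to 8.39 in KO414. Its log2 difference from WT was -0.18 ± 0.09 (SE) in KO313 and -0.05 ± 0.09 in KO414, and the clones differed by 0.13 (95% interval -0.06 to 0.32, limma adjusted p = 0.718).

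SGPP2, the second S1P phosphatase gene, on chromosome 2, was the member that separated the clones. Its levels were 1.93, 1.95, 2.00 and 2.07 RPKM in WT replicates 1 to 4, 2.85, 3.40, 3.24 and 3.59 in KO313, and 2.33, 2.08, 2.47 and 2.28 in KO414. The 3 groups did not overlap, with WT lowest, KO414 just above and KO313 highest, and the lowest KO414 library was close to the highest WT library. The mean was 1.64-fold higher than WT in KO313 and 1.15-fold higher in KO414, log2 differences of 0.59 ± 0.07 (SE) and 0.16 ± 0.07. KO414 was 1.43-fold lower than KO313, a log2 difference of -0.43 ± 0.07 (95% interval -0.58 to -0.28, limma adjusted p = 0.00252), with all 4 KO414 libraries below all 4 KO313 libraries. It was called in each of the 19 alternative analyses. SGPP2 accounted for 19.4 ± 2.29% of the summed phosphatase RPKM in WT cells, 30.9 ± 3.65% in KO313 and 22.1 ± 1.61% in KO414.

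Of the 2 RefSeq start windows of SGPP2, the first is shown because, among all the windows of the members, only it and the SPHK1 windows above hold an AP-1 match. It also holds 2 matches to the site of NF-kB, a transcription factor of inflammatory signalling. The window is chr2:222423738-222424037 on the plus strand (GRCh38.p14). Capitals mark NF-kB matches at positions -239 and -139 and an AP-1 match at position -63.
SGPP2 window 1: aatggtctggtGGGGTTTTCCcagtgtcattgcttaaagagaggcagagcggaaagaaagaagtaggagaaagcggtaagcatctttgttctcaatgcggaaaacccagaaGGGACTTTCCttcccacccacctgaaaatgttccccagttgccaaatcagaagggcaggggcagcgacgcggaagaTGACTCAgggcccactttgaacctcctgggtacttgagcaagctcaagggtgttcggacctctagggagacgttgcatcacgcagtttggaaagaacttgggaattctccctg
Of all windows, 0.738% hold 2 or more NF-kB matches. The window also holds 1 p53 half-site, and the second SGPP2 window holds 7 GC boxes. RefSeq windows were found for 7 of the 8 members (12 windows), with none for SGPP1, and the windows of SPHK2, SGPL1, S1PR1, S1PR2 and S1PR3 hold no AP-1 or NF-kB match.

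S1PR3, on chromosome 9, was the most abundant receptor transcript and the only member called lower in both clones. The receptor couples to several classes of G protein. Its levels were 7.99, 7.29, 7.22 and 6.88 RPKM in WT, 4.98, 5.41, 5.42 and 5.90 in KO313, and 3.99, 4.74, 4.99 and 5.23 in KO414. Each p53 KO library lay below each WT library. The mean was 1.45-fold lower in p53 KO (1.35-fold in KO313 and 1.55-fold in KO414), with log2 differences of -0.50 ± 0.08 (SE), -0.41 ± 0.08 and -0.59 ± 0.08. KO414 had a lower mean than KO313 by -0.18 on the log2 scale (95% interval -0.36 to -0.01), which did not pass the test (limma adjusted p = 0.386).

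S1PR1, a receptor known for its roles in lymphocyte egress and in vessels, had the lowest level of the 8 genes. Its levels were 0.309, 0.394, 0.285 and 0.260 RPKM in WT, 0.629, 0.563, 0.327 and 0.581 in KO313, and 0.514, 0.599, 0.490 and 0.496 in KO414. KO313 replicate 3 lay within the WT range and the other 7 p53 KO libraries above it. The mean was 1.68-fold higher in each clone, which on the log2(RPKM + 0.5) scale is only 0.33 ± 0.10 (SE) in KO313 and 0.34 ± 0.10 in KO414, since the added 0.5 exceeds the WT level. The whole numbers behind these RPKM values, which are scaled reads, were 43 to 65 in WT and 54 to 104 in p53 KO. S1PR1 has no overlapping gene in GENCODE 29. The clones differed by 0.01 (95% interval -0.20 to 0.22, limma adjusted p = 0.998).

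S1PR2, a receptor that signals strongly through G12 and G13, had levels of 0.487, 0.580, 0.487 and 0.536 RPKM in WT, 0.618, 0.635, 0.689 and 0.585 in KO313, and 0.815, 0.612, 0.908 and 0.635 in KO414. The p53 KO libraries lay above the WT libraries, although KO313 replicate 4 (0.585) was close to WT replicate 2 (0.580). The log2 difference from WT was 0.15 ± 0.08 (SE) in KO313 and 0.27 ± 0.08 in KO414, and the clones differed by 0.13 (95% interval -0.05 to 0.30, limma adjusted p = 0.688). S1PR2, on chromosome 19, overlaps the DNA methyltransferase gene DNMT1 on the same strand. DNMT1 had 24.4 ± 1.83 RPKM in WT and 29.4 ± 1.70 in p53 KO, a log2 difference of 0.27 ± 0.06 (SE; limma adjusted p = 0.00308). Its reads cannot be told apart from those of S1PR2 where the genes overlap, and their part in the S1PR2 difference was not tested.

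The remaining receptors were at the limit of detection. S1PR5 had 0.0852 ± 0.0230 RPKM in WT and 0.214 ± 0.0519 in p53 KO, from whole numbers of 9 to 16 and 24 to 44, and the groups did not overlap. It was too low for the filter of the main test. In limma-voom on the whole numbers, which are scaled and not read counts, its log2 difference was 1.29 ± 0.25 (SE). It entered that fit only with the help of p53 KO libraries, as WT replicate 1, at 9, was below the minimum of 10. Its direction is therefore no finding. S1PR4, at whole numbers of 0 to 4, was not informative. Over all 5 receptors the summed level was 8.28 ± 0.459 RPKM in WT cells, 6.79 ± 0.381 in KO313 and 6.23 ± 0.507 in KO414, and the share of S1PR3 in it was 88.7 ± 1.48%, 79.9 ± 2.03% and 75.8 ± 3.01%. S1PR3 thus remained the most abundant receptor transcript in every library, with a share of at least 71.6%.

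**Figure D2:**
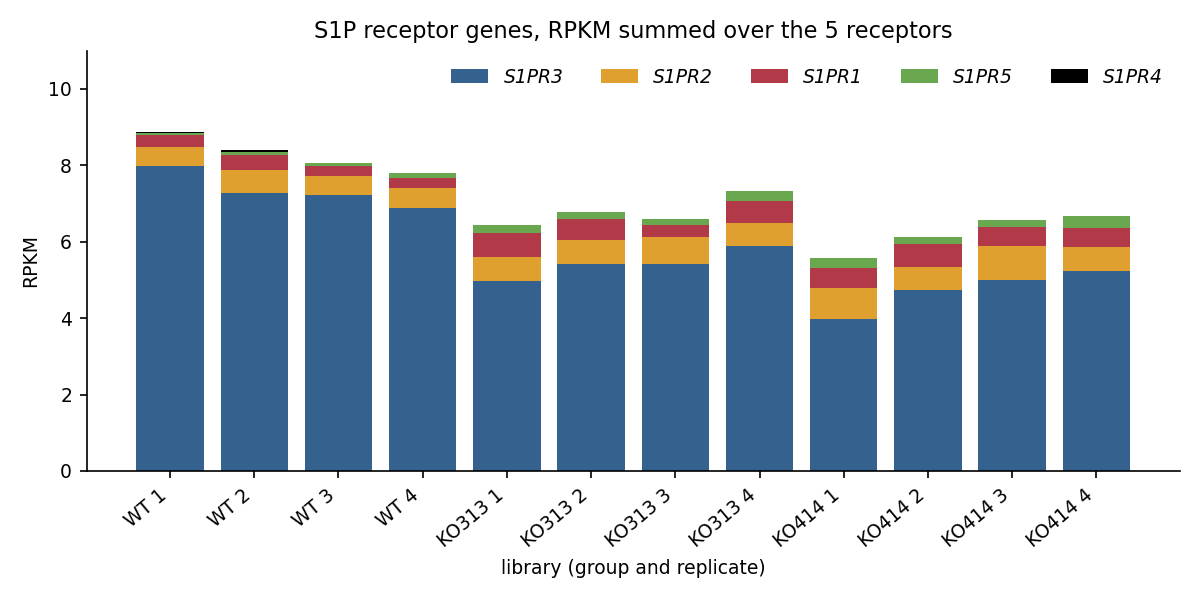
Level of the 5 S1P receptor genes stacked in each library (vertical axis, RPKM, from 0; horizontal axis, group and replicate). S1PR3 forms most of each bar, from 6.88 to 7.99 in WT and from 3.99 to 5.90 in the clones. The thinner S1PR2, S1PR1 and S1PR5 segments are taller in the clones than in WT apart from S1PR1 in KO313 replicate 3. These genes lie near or below the filter, and their direction is no finding.

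All 8 members passed the filter of at least 0.5 RPKM in at least 4 libraries, S1PR1 and S1PR2 with the help of p53 KO libraries. S1PR1 reached 0.5 RPKM in 0 of 4 WT and 5 of 8 p53 KO libraries, and S1PR2 in 2 of 4 and 8 of 8. S1PR1 could pass only through p53 KO libraries, and S1PR2 not without them, so the direction of neither is a finding. At an adjusted p under 0.05 in p53 KO against WT, SPHK1, SGPP2 and S1PR1 were called higher (3 of 8), where 15.6% of all 12215 tested genes were, and S1PR3 lower (1 of 8), where 14% were. SPHK1 was called at a fold of at least 2, as were 0.18% of tested genes upwards and 1.29% downwards. In KO313 against WT the same 3 genes were called higher and S1PR3 lower, against 10.8% and 10.7% of all tested genes. In KO414 against WT, SPHK1, S1PR1 and S1PR2 were called higher and S1PR3 lower, against 15.2% and 14.6%. As these contrasts were treated as used for choosing the members, nothing is read from the counts. The comparisons share the WT libraries. The median log2 difference over the 8 members was 0.13 in p53 KO, beside 0.01 over all tested genes. Between the clones, 0 of 8 members were called higher and SGPP2 lower, where 1.15% and 2.22% of all tested genes were called.

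The calls of the weaker members against WT, given only as a description, turned on single libraries. In p53 KO against WT, SGPP2 was no longer called without any 1 of the 4 WT replicates, with log2 differences between 0.33 and 0.43 over all libraries left out in turn. S1PR2 was called without KO313 replicate 4. In KO313 against WT, S1PR1 lost its call in 6 of the 12 fits with a library left out (WT replicates 1, 3 and 4 and KO313 replicates 1, 2 and 4), and SGPP1 was called lower without WT replicate 3. In KO414 against WT, S1PR1 lost its call without WT replicate 4, and S1PR2 without WT replicate 1, WT replicate 3 or KO414 replicate 3.

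**Figure D3:**
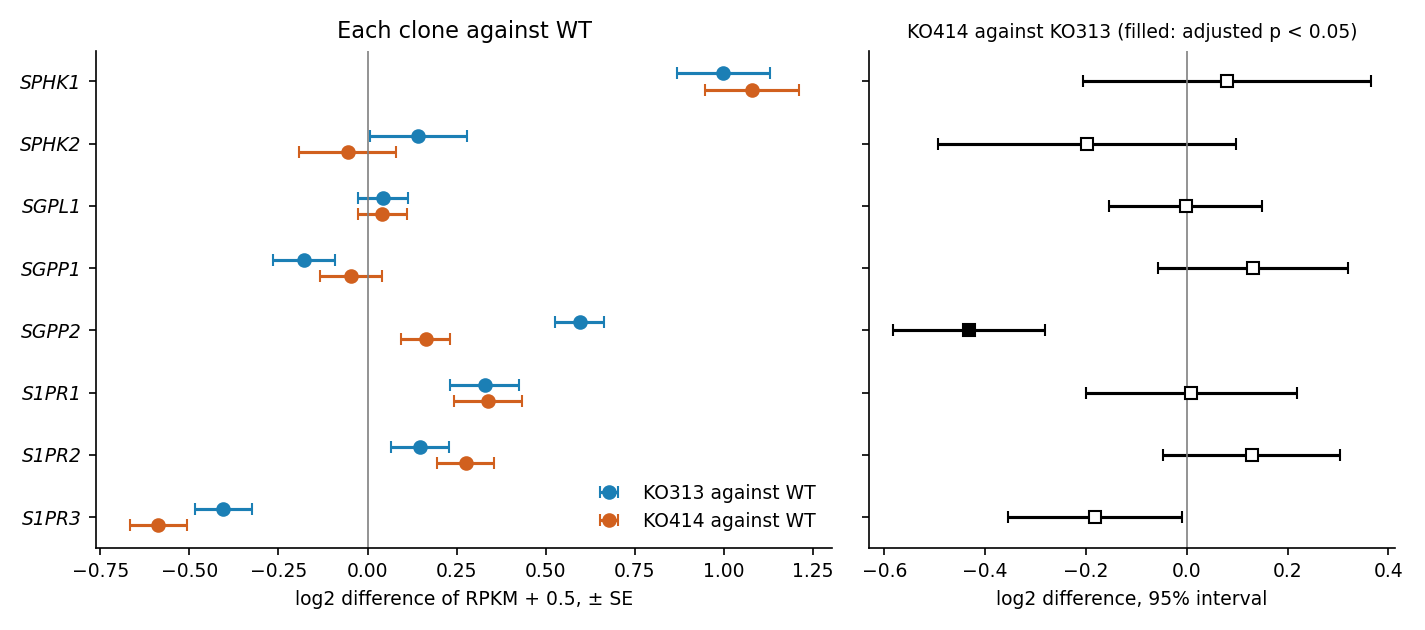
Log2 difference of RPKM + 0.5 of the 8 genes. On the left, each clone against WT with SE (4 against 4 libraries), where SPHK1 lies at 1.00 and 1.08 and S1PR3 at -0.41 and -0.59. On the right, KO414 against KO313 with 95% intervals, where SGPP2, the filled square at -0.43, is the one gene with an adjusted p under 0.05.

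The other genes of the pathway were taken from lists that cover S1P transport, ceramide and sphingomyelin metabolism, G proteins, the related receptors for lysophosphatidic acid, and YAP-TEAD targets. These lists were written with earlier results of these data known, and the genes named from them were picked by their p-values. Their p-values below are therefore a description. Of 70 listed genes, 66 were matched in the table and 51 passed the filter. In p53 KO against WT, 11 rose, 12 fell and 28 did not pass the test (limma, adjusted p under 0.05), with a median log2 difference of -0.02, beside 0.01 for all tested genes. Over all tested genes, 15.6% were called higher and 14% lower. Without KO414 replicate 1, 13 rose and 13 fell. In KO414 against KO313, 0 were higher and 2 lower, where 1.15% and 2.22% of all tested genes were.

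The gene with the largest change in these lists was ACER2, the alkaline ceramidase of the Golgi that releases sphingosine, the substrate of the kinases. It had 5.68, 4.81, 5.30 and 4.77 RPKM in WT, 0.953, 0.939, 0.835 and 0.759 in KO313, and 0.738, 1.08, 0.988 and 0.898 in KO414. The groups were far apart, and both clones were at the same low level. The mean was 5.72-fold lower in p53 KO, a log2 difference of -2.01 ± 0.07 (SE; limma adjusted p = 2.03e-10), and ACER2 was the only one of the 51 genes to change at least 2-fold. Of the other ceramidase genes, ACER3 rose slightly, from 7.68 ± 0.752 to 9.34 ± 0.807 RPKM (limma adjusted p = 0.016, or 0.064 without WT replicate 3). The lysosomal ceramidase gene ASAH1 was at 19.3 ± 1.09 RPKM in WT and 17.3 ± 1.20 in p53 KO and did not pass the test (limma adjusted p = 0.052). It passed without KO313 replicate 1 (limma adjusted p = 0.0327) and with quantile normalization (0.0331). The clones were unlike, at 18.4 ± 0.276 RPKM in KO313 and 16.2 ± 0.327 in KO414 (limma adjusted p against WT = 0.328 and 0.0015).

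Of the 5 genes for S1P export and carriers, 3 were tested and 1 rose. SPNS2, the S1P exporter, went from 6.45 ± 0.568 RPKM in WT to 8.25 ± 0.440 in KO313 and 9.16 ± 0.805 in KO414, and all 8 p53 KO libraries lay above WT. Its log2 difference was 0.41 ± 0.07 (SE; limma adjusted p = 0.000758). ABCC1, a multidrug exporter that can carry S1P, gave 0.06 (adjusted p = 0.601), and APOM, the apolipoprotein that binds S1P in plasma, gave -0.12 (adjusted p = 0.49), both by limma. ALDH3A2, the fatty aldehyde dehydrogenase that takes the lyase product further, fell from 29.2 ± 0.965 to 23.5 ± 0.971 RPKM (log2 difference -0.31, limma adjusted p = 9.18e-05).

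In ceramide synthesis, 12 of 17 genes were tested, of which 2 rose and 4 fell. CERS2, the ceramide synthase for very long acyl chains, rose from 78.4 ± 2.77 to 97.1 ± 2.16 RPKM (log2 difference 0.31, limma adjusted p = 2.08e-05). DEGS1, the desaturase of the last step to ceramide, rose from 50.9 ± 2.24 to 58.8 ± 2.74 RPKM (limma adjusted p = 0.00339). SPTSSA, a small subunit of serine palmitoyltransferase at the first step, fell from 31.4 ± 3.54 to 23.8 ± 1.53 RPKM (limma adjusted p = 0.000778). The genes thus changed in both directions within the list.

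Of 6 tested genes for sphingomyelin synthesis and breakdown, 2 rose and 0 fell. They were the neutral sphingomyelinase genes SMPD4 (log2 difference 0.26, limma adjusted p = 0.00167) and SMPD2 (0.28, limma adjusted p = 0.0247, or 0.0983 without WT replicate 1 and 0.0819 without WT replicate 4). The acid sphingomyelinase gene SMPD1 had 3.13 ± 0.0941 RPKM in WT and 3.59 ± 0.461 in p53 KO (limma adjusted p = 0.162, or 0.0405 without KO414 replicate 2). In the list of ceramide kinase, glycosylation and transfer, 7 genes were tested, 1 rose and 1 fell. GLTP, the glycolipid transfer protein gene, fell from 18.8 ± 0.704 to 14.6 ± 0.236 RPKM (limma adjusted p = 5.09e-06). GBA2, the non-lysosomal glucosylceramidase gene, had a log2 difference of 0.12 (limma adjusted p = 0.167, or 0.0416 without WT replicate 3).

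The 2 tested genes of these lists that were called between the clones in the main test were both in that list. CERK, the ceramide kinase gene, had 6.07 ± 0.222 RPKM in WT cells, 6.05 ± 0.449 in KO313 and 4.52 ± 0.273 in KO414, with a log2 difference of -0.38 ± 0.06 (SE) for KO414 against KO313 (limma adjusted p = 0.00263). UGT8, which makes galactosylceramide, had 6.29 ± 0.484, 8.36 ± 0.247 and 5.90 ± 0.714 RPKM in the same order, with a log2 difference of -0.48 ± 0.08 (SE; limma adjusted p = 0.00369). In both genes KO414 lay below KO313 without overlap, as it did in SGPP2. ASAH1 was also lower in KO414 without overlap but did not pass the main test (limma adjusted p = 0.0582). It was called without a filter (limma adjusted p = 0.0254) and with quantile normalization (0.0478). The ceramide synthase gene CERS1, too low for the filter, lay the other way, at 0.0774 ± 0.0301 RPKM in KO313 and 0.310 ± 0.0177 in KO414.

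Of the 7 G protein alpha subunit genes through which S1P receptors signal, all were tested and 1 changed. GNAI1, an inhibitory subunit, fell from 11.3 ± 0.915 to 7.19 ± 0.458 RPKM (log2 difference -0.62 ± 0.06 SE, limma adjusted p = 4.04e-06), with no overlap. GNAI2, the more abundant inhibitory subunit gene, had 34.0 ± 2.34 and 37.6 ± 2.20 RPKM (limma adjusted p = 0.0676, or 0.0163 without KO414 replicate 2 and 0.034 without WT replicate 3). GNA12 had 10.4 ± 0.696 and 11.4 ± 0.781 RPKM (limma adjusted p = 0.136, or 0.0397 without KO414 replicate 1). Of 5 tested genes for lysophosphatidic acid receptors and autotaxin, 2 rose and 1 fell. LPAR2 rose from 3.63 ± 0.389 to 5.43 ± 0.619 RPKM (limma adjusted p = 0.000507) and LPAR3 from 2.26 ± 0.235 to 3.36 ± 0.551 RPKM (limma adjusted p = 0.00347). LPAR6 fell from 1.18 ± 0.0399 to 0.699 ± 0.0412 RPKM (limma adjusted p = 1.05e-05). The tested genes of this receptor family thus differed in direction.

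YAP and TEAD are a transcriptional coactivator and its DNA-binding partners, which S1P and lysophosphatidic acid are known to activate through G12 and G13. Of 6 tested target genes, 2 rose and 3 fell. CTGF, which encodes a secreted matrix-associated protein, fell from 15.7 ± 0.594 to 9.66 ± 0.465 RPKM (limma adjusted p = 9.44e-08). F3, the tissue factor gene, rose from 139.9 ± 8.24 to 200.7 ± 11.5 RPKM (limma adjusted p = 7.05e-06), and AXL, a receptor tyrosine kinase gene, from 15.0 ± 0.473 to 18.3 ± 0.822 RPKM (limma adjusted p = 0.000234).

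**Figure D4:**
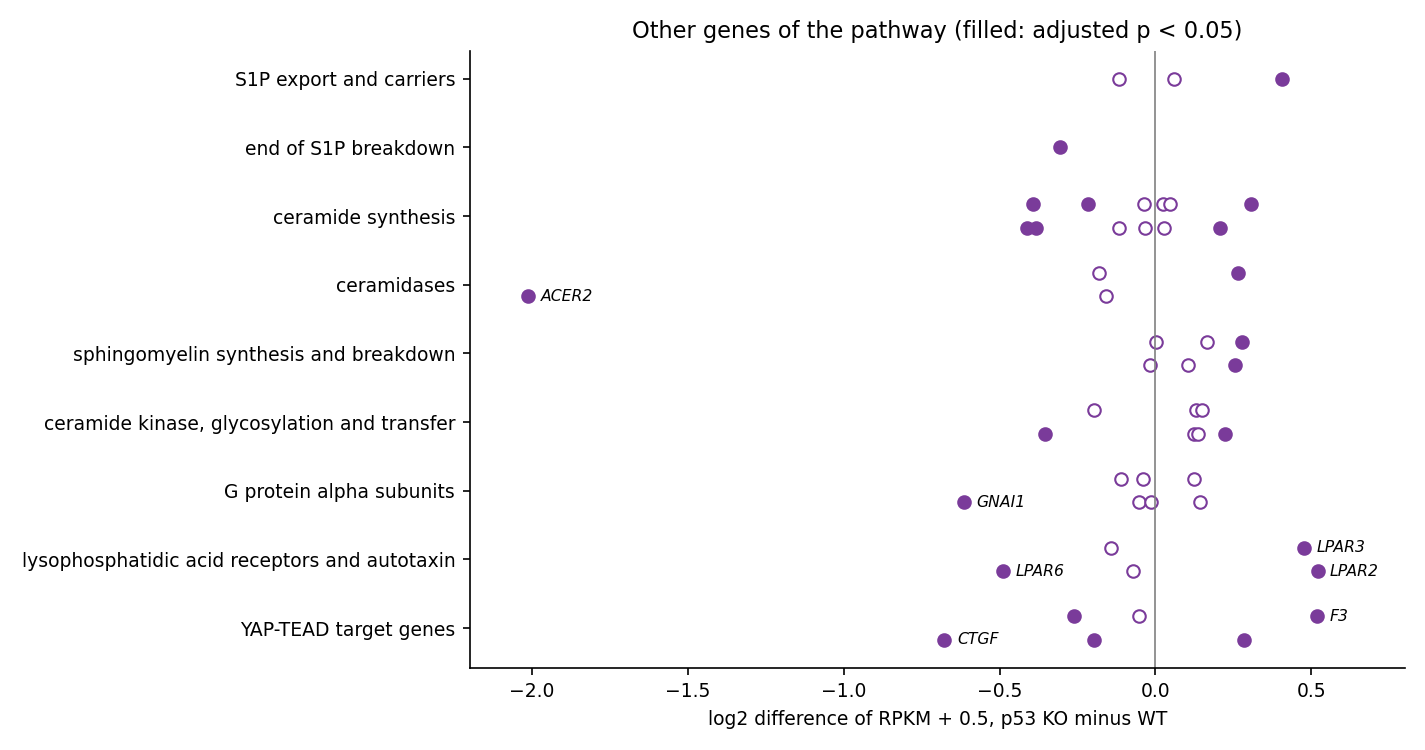
Log2 difference of RPKM + 0.5, p53 KO minus WT, of the 51 tested genes of the other pathway lists, 1 row per list and 1 point per gene (vertical offsets only separate points). Filled points have an adjusted p under 0.05 (11 to the right and 12 to the left of 0), and ACER2 stands alone at -2.01.

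Genes whose pattern over the 12 libraries was most like that of SPHK1 were sought among all 12215 tested genes by the root mean square difference of log2 values, each gene centred on its own WT mean. The nearest were DUSP2, a phosphatase gene that acts on MAP kinases (0.162), PLAUR, the urokinase receptor gene (0.170), and MIR4260 (0.172). DUSP2 had 1.94 ± 0.477 RPKM in WT cells, 4.00 ± 0.331 in KO313 and 4.08 ± 0.810 in KO414. PLAUR had 6.29 ± 0.299, 11.5 ± 1.13 and 13.7 ± 1.64 RPKM. MIR4260 lies within the laminin gene LAMB3 on the same strand, so its reads cannot be told apart from those of LAMB3, which had 99.9 ± 4.41 RPKM in WT and 181 ± 23.3 in p53 KO. In KO414, SPHK1, DUSP2, PLAUR and MIR4260 were highest in replicate 1 and lowest in replicate 2. The genes were picked for this likeness, so their levels are a description.

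**Figure D5:**
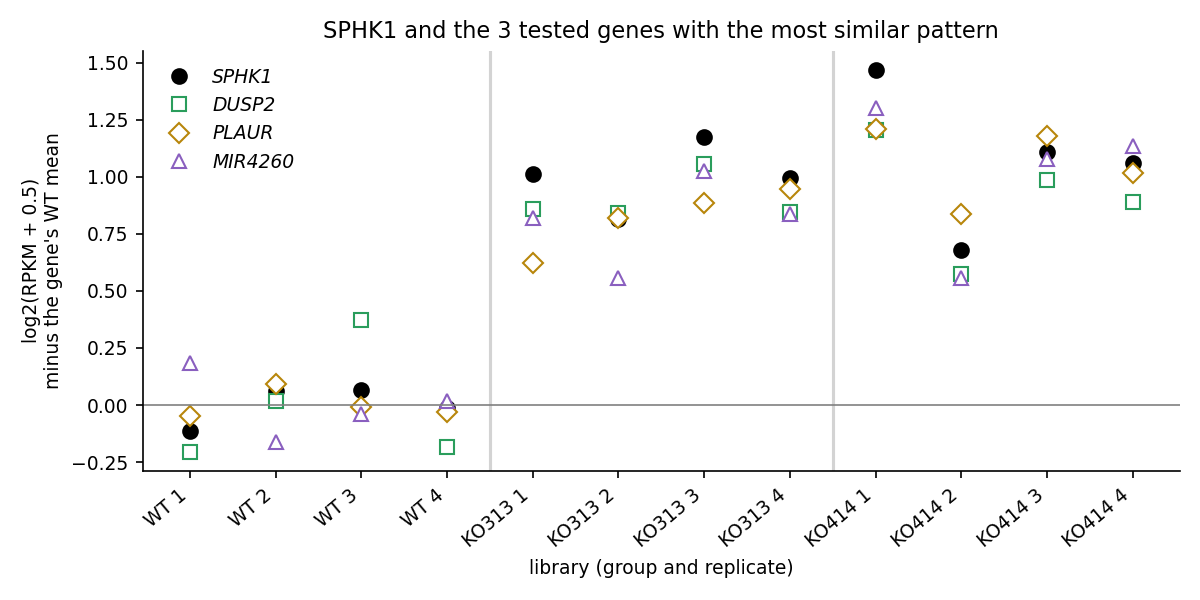
Log2(RPKM + 0.5) minus the gene's own WT mean (vertical axis) of SPHK1 and of the 3 tested genes with the most similar pattern, in the 12 libraries (horizontal axis). The 8 p53 KO libraries lie above the WT libraries for each gene, and KO414 replicates 1 and 2 are the highest and lowest of their group.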

How the data were processed

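RNA from 4 WT, 4 KO313 and 4 KO414 libraries of MCF10A was sequenced. The labels name an mRNA kit and the study's methods ribosomal RNA removal, so selection by poly(A) tail is unresolved. The authors deposited a table of RPKM values, with Trimmomatic and hg19 named in the submitters' processing notes. Aligner, counting program, annotation and strandedness: not given in the sources used here. As in the study, both clones were combined against WT. Here the 4 columns of each group were mapped by their names, and 4 repeats among the 26 date-like symbols of 22328 rows were left out. RPKM values were whole numbers over gene length and library total for 100% of genes above 0 (tolerance 1e-06), with totals of 38.9 to 39.0 M that differ by 0.123%. They had been scaled to equal totals, so the original depth is unknown and they were not taken as read counts. The unit therefore stayed RPKM, as planned.

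Genes with at least 0.5 RPKM in at least 4 libraries were tested with limma 3.58.1 (R 4.3.3, intensity trend, two-sided) on log2(RPKM + 0.5), a scale that understates changes of low genes, with Benjamini-Hochberg adjustment over 12215 genes. Printed folds are ratios of mean RPKM, whereas the 2-fold threshold was applied to the difference on the log2(RPKM + 0.5) scale. SPHK1 in KO313 against WT, 2.07-fold by means, was at 0.9985 on that scale and just missed the threshold. The fit was also run on simulated data with independent libraries and no difference between the clones. That run therefore does not bear on the combining of the 2 clones. Calls were made at an adjusted p under 0.05, in 2 groups for p53 KO against WT and in 3 groups otherwise. Alternatives were pseudocounts of 0.1 and 1, no filter, a filter at 1 RPKM, quantile normalization, the replicate number as a block, limma-voom on the whole numbers (at least 10 in at least 4 libraries), and each library left out. The members and gene lists were chosen with earlier results of these data known. Named in the text are the members, CDKN1A and MDM2, and from each list genes changed at least 2-fold, up to 3 genes with the smallest p in p53 KO against WT and up to 2 called between clones, or the most abundant gene where none was tested, and the 3 genes most like SPHK1. S1PR4, CERS1, CD3E, CDH5, ITGAM and COL1A1 were named after their values were seen. Overlapping genes came from GENCODE 29 and start windows from RefSeq. PLPP1, PLPP2, PLPP3 and CPTP were not analysed here. Some genes that this rule would name are not reported here.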

Additional observations from a re-analysis of the deposited data

Results flagged for a closer look

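In 40 named genes, each group of 4 libraries was searched for a library far from the other 3, and 4 of 120 groups held one, where chance gives about 1 in 20. SPHK2 was at 1.76 RPKM in WT replicate 1 and at 1.19 to 1.25 in the other WT libraries. GLTP was at 19.9 RPKM in WT replicate 1, against 18.4 to 18.6. ASAH1 was at 18.8 RPKM in KO313 replicate 1, against 18.2 in each of the others. DUSP2 was at 4.49 RPKM in KO313 replicate 3, against 3.81 to 3.86.

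The clones differed, by limma on log2(RPKM + 0.5) over all tested genes, in 3 of the named genes. Of all tested genes, 1.15% were called higher and 2.22% lower in KO414 against KO313. CERK and UGT8 were named because they were called between the clones, so the count of 3 is no finding. KO414 was lower than KO313 in SGPP2 by a log2 difference of -0.43 (adjusted p = 0.00252), in CERK by -0.38 (adjusted p = 0.00263) and in UGT8 by -0.48 (adjusted p = 0.00369). In each of them every KO414 library lay below every KO313 library.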

How the results depend on the processing

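No difference past its threshold changed direction under any alternative run. Counts of genes changed at least 2-fold moved most. For p53 KO against WT the count was 180, with 273 at a pseudocount of 0.1 and 626 by limma-voom. For KO313 against WT it was 175, with 269 at a pseudocount of 0.1, 109 at a pseudocount of 1 and 624 by limma-voom. For KO414 against WT it was 234, with 151 at a pseudocount of 1 and 808 by limma-voom. For KO414 against KO313 it was 35, with 100, 14 and 318 in the same order as for KO313, and the count at any fold was 411, with 701 without a filter and 735 by limma-voom. Leaving out 1 library gave 270 to 515 for that count, lowest without KO313 replicate 2 (273 without KO313 replicate 4). It gave 28 to 42 for the count at 2-fold between the clones. At any fold, p53 KO against WT gave 2505 to 4388 (3615 with all libraries). The highest count of each of these ranges came without KO414 replicate 1. Of the members, 4 were called in KO414 against WT and 2 with the filter at 1 RPKM, where S1PR1 and S1PR2 were not tested. The log2 difference of S1PR1 in p53 KO was 0.33, and 0.60 at a pseudocount of 0.1 and 0.74 by limma-voom.

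Libraries with the same replicate number correlated at -0.19 to 0.51 in their deviations from the group means. The best match in KO313 had the same number for WT replicates 1, 2 and 3. In KO414 it did for WT replicate 2 and for KO313 replicates 1 and 2. For the others the best match had another number, and the numbers were not taken as pairs in the main test. With the replicate number as a block, 3466, 2544, 3517 and 355 genes were called in p53 KO, KO313 and KO414 against WT and between the clones, and 180, 178, 239 and 37 at 2-fold. SGPP2 in p53 KO against WT was not called with the block.

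Precision is limited by the unknown original depth, by low values of S1PR1, S1PR2 and S1PR5, and by 1 clone per guide pair.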
